A study of Mus musculus with 21 samples.

Results

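The genes described here are 42 mouse genes of the response to low oxygen and of glycolysis, of 55400 genes counted in every library. They were chosen by name. They fall into 4 classes by role: 4 genes of the HIF system itself, 16 HIF targets outside metabolism, 4 transport genes and 18 glycolytic enzymes. The transport genes are those of glucose and lactate transport, with the pyruvate dehydrogenase kinase Pdk1 placed among them. The list was put together with responses to the drug GSKJ4 in these data already known, so the values under GSKJ4 are given as a description of these genes and support nothing beyond themselves. All 42 genes were found in the table, and all 42 passed the filter on low counts in every fit.

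The cells were motor neurons differentiated in vitro from wild-type C57BL/6 mouse embryonic stem cells, which had been kept on mitomycin-treated embryonic fibroblasts. They were grown as embryoid bodies in retinoic acid and the Sonic hedgehog agonist SAG from day 2. DAPT, an inhibitor of Notch signalling, was added at day 4. At day 5 the medium was changed to one with DAPT but without retinoic acid and SAG. This scheme is directed at hypaxial motor column neurons. In stage contrasts that span a change of medium, its effect and that of time cannot be told apart. RNA-seq of polyadenylated RNA was made at D4 (day 4), at D4H8 (8 h later), at D5 and at D6, and from cells treated with GSKJ4 and collected at D4H8, D5 or D6, with 3 biological replicates in each of the 7 groups. GSKJ4 is a small molecule that inhibits the histone demethylases Kdm6a and Kdm6b. It was added one day before collection to block the activity of Kdm6b, the labels do not give its dose, and the untreated libraries of the same stage were the controls. A vehicle is not named for them. Each library is a whole culture, so fewer cells of a type and less RNA per cell cannot be told apart.

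Hypoxia-inducible factors (HIF) are transcription factors made of an oxygen-sensitive alpha subunit and a stable beta subunit. With oxygen present, prolyl hydroxylases mark the alpha subunit for destruction. With little oxygen the subunit persists, enters the nucleus and binds a short DNA core at genes for glucose uptake, glycolysis, lactate export, blood vessel growth, matrix processing and removal of mitochondria. Stem cells and neural progenitors are known for a high rate of glycolysis, and neurons depend more on mitochondrial respiration. The level of the messenger RNA for a HIF alpha subunit is not a measure of its activity, because its main control is the stability of the protein.

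Total counts ran from 14982115 to 34383842 per library (median 16238435), and the 42 genes took 0.58% to 1.74% of them. Neuron markers (Tubb3, Map2, Stmn2, Elavl3) summed to between 30.6 and 62.9 FPKM at D4 and between 1627 and 1860 FPKM at D6, and motor neuron markers (Isl1, Isl2, Mnx1, Chat, Slc18a3) to between 7.27 and 17.6 and between 391 and 452. The labels call the cells of every group motor neurons, but at D4 the motor neuron markers Isl2, Chat and Slc18a3 were under 1 FPKM. Markers of pluripotent cells still summed to between 11.3 and 90.6 FPKM at D6. The 7 feeder fibroblast markers (Col1a1, Col1a2, Col3a1, Postn, Lum, Dcn, Pdgfrb) summed to between 4.34 and 27.3 FPKM over all libraries, with 3 or 4 of them, Postn and Lum always among these, under 1 FPKM in each group. The library of D5 with GSKJ4, replicate 2, stood apart with 39381 genes at a count of 0, against 29339 to 32805 in the other libraries.

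The core that HIF binds is ACGTG or GCGTG. RefSeq promoters (GRCm38.p6, 250 bases before to 50 after the gene start) could be matched to 36 of the 42 genes. Epas1, Bnip3l, Ndrg1, Plod2, Bhlhe40 and Slc2a3 were not matched. At least 1 core, read on either strand with overlapping matches counted once, was present in 28 of the 36 (77.8%) and in 43.8% of 27025 promoters of all genes. The core ACGTG also lies inside the E-box CACGTG, which other factors bind. At least 2 cores were present in 63.9% of the matched genes and in 17.4% of all promoters. Each core holds the letters CG, and the promoters of all genes were not selected to be like these genes in expression or base content. The part of such differences in these shares was not tested. Of the 15 matched genes that were lowered by GSKJ4 at D4H8, 12 (80.0%) had a core, and of the 21 others 16 (76.2%) did.

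The promoters of 7 genes are printed 5′ to 3′ on the strand of the gene, with each core, or run of overlapping cores from both strands, in capitals. The first 5 belong to genes with low values under GSKJ4 at D4H8, and P4ha2 and Vegfa belong to genes that were not called there. They are Ldha (chr7:46845554-46845853, plus strand, 5 cores), Slc16a3 (chr11:120948817-120949116, plus strand, 2 cores), Bnip3 (chr7:138909457-138909756, minus strand, 4 cores), Ankrd37 (chr8:45999801-46000100, minus strand, 3 cores), Pgk1 (chrX:106186850-106187149, plus strand, 2 cores), P4ha2 (chr11:54100674-54100973, plus strand, 4 cores) and Vegfa (chr17:46032328-46032627, minus strand, no core).
Ldha: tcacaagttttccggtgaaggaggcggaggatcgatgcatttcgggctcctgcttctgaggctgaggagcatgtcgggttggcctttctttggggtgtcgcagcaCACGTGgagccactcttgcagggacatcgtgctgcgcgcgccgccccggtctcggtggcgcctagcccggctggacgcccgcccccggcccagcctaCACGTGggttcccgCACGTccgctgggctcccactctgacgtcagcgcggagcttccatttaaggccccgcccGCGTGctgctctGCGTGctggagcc
Slc16a3: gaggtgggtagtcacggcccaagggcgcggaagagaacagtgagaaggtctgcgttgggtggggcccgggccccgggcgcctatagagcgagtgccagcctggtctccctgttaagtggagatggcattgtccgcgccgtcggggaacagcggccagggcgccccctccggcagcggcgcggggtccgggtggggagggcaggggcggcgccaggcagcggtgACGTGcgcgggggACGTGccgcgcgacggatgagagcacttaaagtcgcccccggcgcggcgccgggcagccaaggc
Bnip3: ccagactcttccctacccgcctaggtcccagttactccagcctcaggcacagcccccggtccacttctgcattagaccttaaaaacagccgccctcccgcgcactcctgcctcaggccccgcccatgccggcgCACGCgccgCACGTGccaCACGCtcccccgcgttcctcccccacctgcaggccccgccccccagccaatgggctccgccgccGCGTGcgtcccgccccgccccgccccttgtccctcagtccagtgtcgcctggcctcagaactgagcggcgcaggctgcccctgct
Ankrd37: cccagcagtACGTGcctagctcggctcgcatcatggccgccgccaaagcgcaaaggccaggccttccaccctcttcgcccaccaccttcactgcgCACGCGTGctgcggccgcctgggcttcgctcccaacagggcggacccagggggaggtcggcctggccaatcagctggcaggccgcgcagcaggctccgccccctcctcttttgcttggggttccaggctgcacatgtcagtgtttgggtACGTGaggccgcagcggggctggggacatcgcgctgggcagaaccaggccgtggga
Pgk1: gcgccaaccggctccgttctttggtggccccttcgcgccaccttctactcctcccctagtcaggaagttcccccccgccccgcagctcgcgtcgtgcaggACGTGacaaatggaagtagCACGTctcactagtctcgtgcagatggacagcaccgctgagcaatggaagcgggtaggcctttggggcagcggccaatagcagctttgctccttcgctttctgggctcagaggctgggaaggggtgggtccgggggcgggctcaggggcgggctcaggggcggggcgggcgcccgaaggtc
P4ha2: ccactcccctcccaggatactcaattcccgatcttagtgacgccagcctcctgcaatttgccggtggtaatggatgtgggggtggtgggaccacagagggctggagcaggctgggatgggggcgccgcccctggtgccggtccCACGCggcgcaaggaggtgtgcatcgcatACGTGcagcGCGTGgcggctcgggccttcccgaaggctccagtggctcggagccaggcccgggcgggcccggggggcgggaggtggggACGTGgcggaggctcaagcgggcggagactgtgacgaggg
Vegfa: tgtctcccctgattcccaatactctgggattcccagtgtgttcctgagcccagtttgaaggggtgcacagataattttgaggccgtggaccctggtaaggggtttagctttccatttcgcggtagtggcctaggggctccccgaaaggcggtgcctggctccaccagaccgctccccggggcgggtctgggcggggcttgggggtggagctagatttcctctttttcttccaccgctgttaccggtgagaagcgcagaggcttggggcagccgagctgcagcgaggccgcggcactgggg
P4ha2 had as many cores as Bnip3, and Vegfa had none in this window. A match to these letters is not a bound site, and a window without them says nothing about sites elsewhere.

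In untreated cells the levels of the 42 genes spanned several orders of magnitude on the FPKM scale, which is per kilobase of exon. The mean over the 12 untreated libraries was lowest for Car9 (0.518 FPKM), a carbonic anhydrase, and Epas1 (0.876 FPKM), a HIF alpha subunit. It was highest for the glycolytic enzymes Pkm (537 FPKM), Eno1 (406), Aldoa (381), Pgk1 (344) and Ldha (301). Summed over the 18 glycolytic enzymes, FPKM ran from 2446 to 3444 at D4, from 2289 to 3055 at D4H8, from 2313 to 3247 at D5 and from 1848 to 2425 at D6. The 4 stages overlapped except that each D6 library was below each D4 library.

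Between D4 and D6 the genes went in both directions, also within the glycolytic enzymes. Of the 42 genes, 14 rose (33.3%) and 9 fell (21.4%) by edgeR's quasi-likelihood test at an adjusted p under 0.05, and of 17519 genes tested 32.9% rose and 31% fell. The share of the 42 genes that changed was therefore near that of all genes or below it, and is no particular feature of them. Among the glycolytic enzymes 8 rose and 6 fell, among the HIF targets outside metabolism 4 rose and 1 fell, among the transport genes 1 fell, and in the HIF system 2 rose and 1 fell. The scaling matters for this split. Upper-quartile scaling moved the median log2 fold change of all genes from −0.04 to −0.19. It gave 11 rises and 10 falls among the 42, and 5144 rises and 6342 falls among the 17519 genes tested.

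The 6 largest rises were those of Pfkp, Hk1, Eno2, Pfkfb3, Pfkfb4 and Mxi1, each of which was called in 13 of 13 alternative fits. Pfkp, the platelet isoform of phosphofructokinase, had 1.43, 4.51 and 6.11 FPKM at D4, 1.77, 4.75 and 5.63 at D4H8, 22.0, 12.6 and 17.0 at D5, and 68.5, 56.0 and 51.8 at D6. All D6 libraries were above all D5 libraries, and all D5 libraries above those of D4 and D4H8, for a rise from D4 to D6 of 15.9-fold (log2 3.99, SE 0.47, adjusted p = 5.35e-06). Reads of Pfkp cannot be told from those of Pitrm1 on the other strand where the genes overlap, because the counting strand is not stated in the sources used here. Hk1, the hexokinase that is bound to mitochondria and common in brain, had 2.69, 3.65 and 4.63 FPKM at D4 and 25.1, 23.5 and 23.2 at D6 (log2 2.80, SE 0.21, adjusted p = 7.11e-08). Between them lay 3.72, 4.69 and 5.33 FPKM at D4H8 and 13.6, 7.92 and 9.76 at D5, again without overlap of D4H8, D5 and D6. Eno2, the neuron-specific enolase, had 1.09, 1.57 and 2.02 FPKM at D4, 0.91, 1.36 and 2.53 at D4H8, 4.60, 3.45 and 3.44 at D5 and 9.87, 8.10 and 8.13 at D6 (log2 2.57, SE 0.31, adjusted p = 5.63e-06).

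Pfkfb3 and Pfkfb4 make and remove the sugar bisphosphate that activates phosphofructokinase. Pfkfb3 had 2.36, 3.76 and 4.13 FPKM at D4, 4.60, 4.81 and 5.42 at D4H8, 13.2, 8.68 and 8.50 at D5 and 18.8, 18.2 and 15.1 at D6 (log2 2.43, SE 0.21, adjusted p = 2.24e-07). Pfkfb4 had 1.33, 2.02 and 2.14 FPKM at D4, 2.74, 2.25 and 1.40 at D4H8, 4.84, 4.57 and 4.64 at D5 and 6.84, 6.46 and 6.91 at D6 (log2 1.97, SE 0.22, adjusted p = 3.83e-06). Mxi1, a Max-binding repressor that opposes Myc, had 3.05, 3.49 and 4.01 FPKM at D4, 4.91, 4.98 and 5.08 at D4H8, 6.90, 7.64 and 7.36 at D5 and 13.2, 9.89 and 10.2 at D6 (log2 1.74, SE 0.14, adjusted p = 1.36e-07). Of the 6 genes 5 are glycolytic or regulate glycolysis, and their 3 D6 libraries lay above their 3 D4 libraries in each case. Ankrd37 (log2 1.07, adjusted p = 0.0153), Aldoc (0.83, adjusted p = 0.00193) and Vegfa (0.46, adjusted p = 0.0232) also rose from D4 to D6, as did Pfkm, Gpi1, Ndrg1, Egln3 and Epas1. Hk2, Pkm and Hif1a fell by less than the 6 genes that follow, and the call of Hif1a (log2 −0.32, adjusted p = 0.0463) held in 3 of 13 alternative fits.

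The 6 largest falls from D4 to D6 were those of Slc2a1, Gapdh, Eno1, Ldha, Plod1 and Pgk1. Slc2a1, the glucose transporter Glut1, had 206, 272 and 385 FPKM at D4, 271, 292 and 361 at D4H8, 120, 93.4 and 128 at D5 and 32.4, 73.2 and 77.4 at D6 (log2 −2.17, SE 0.27, adjusted p = 8.98e-06). The D6 libraries were below all D5 libraries and the D5 libraries below all earlier ones. Eno1, the general enolase, had 507, 668 and 602 FPKM at D4, 387, 477 and 484 at D4H8, 381, 282 and 306 at D5 and 209, 296 and 269 at D6 (log2 −1.13, SE 0.16, adjusted p = 3.49e-05). Ldha, the lactate dehydrogenase subunit of glycolytic cells, had 314, 460.5 and 441 FPKM at D4, 229, 325 and 359 at D4H8, 382, 250 and 235 at D5 and 163, 237 and 216 at D6 (log2 −0.91, SE 0.22, adjusted p = 0.0021). For Ldha the D6 libraries were below all D4 libraries but not below those of D4H8 or D5.

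Pgk1, which makes the first ATP of glycolysis, had 346, 451 and 440 FPKM at D4 and 198, 290 and 254 at D6 (log2 −0.67, SE 0.21, adjusted p = 0.0123). Its call was lost without D6 replicate 1, with an adjusted p of 0.0525 by edgeR. Plod1, a lysyl hydroxylase of collagen, had 5.03, 6.59 and 9.17 FPKM at D4, 5.89, 7.18 and 6.65 at D4H8, 4.86, 5.27 and 6.81 at D5 and 2.86, 3.96 and 4.43 at D6 (log2 −0.81, SE 0.19, adjusted p = 0.00178). Gapdh had 56.9, 37.4 and 43.9 FPKM at D4, 25.7, 36.3 and 42.3 at D4H8, 14.6, 41.1 and 26.1 at D5 and 10.4, 18.3 and 20.2 at D6 (log2 −1.46, SE 0.33, adjusted p = 0.00135). The level of Gapdh was below that of the enzymes before and after it in the pathway, Tpi1 and Pgk1, and 22.6% of the 75-base windows of its exons also occur in other genes, 118 of them. Windows are shared likewise for 52.8% of Pgk1, 34.9% of Pgam1, 23.0% of Eno1 and 17.8% of Pkm, so that the levels of these genes are uncertain. Like Pfkp, the genes Slc2a1, Pfkm, Aldoa, Tpi1 and Gapdh have an expressed neighbour on the opposite strand within their bounds.

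The make-up of isoforms at several steps differed between the stages. Hk1 made up 14.9% ± 0.512 (SD, n = 3) of the summed FPKM of Hk1 and Hk2 at D4, 18.4% ± 1.22 at D4H8, 36.8% ± 3.78 at D5 and 64.7% ± 8.73 at D6. Pfkp made up 6.13% ± 2.20 of the FPKM of Pfkl, Pfkm and Pfkp at D4 and 48.1% ± 5.85 at D6, while the mean share of Pfkl was 71.8% at D4 and 29.8% at D6. Eno2 was 0.261% ± 0.0642 of the FPKM of Eno1 and Eno2 at D4 and 3.37% ± 0.998 at D6, so Eno1 made nearly all the enolase message at each stage. Slc2a1 was 80.4% of the FPKM of Slc2a1 and Slc2a3 at D4 and 56.1% at D6. Summed markers of proliferating cells ran from 335 to 378 FPKM at D4 and from 22.6 to 67.5 FPKM at D6, and the part of this and of the rise in neuron markers in the isoform shares was not tested.

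**Figure D1:**
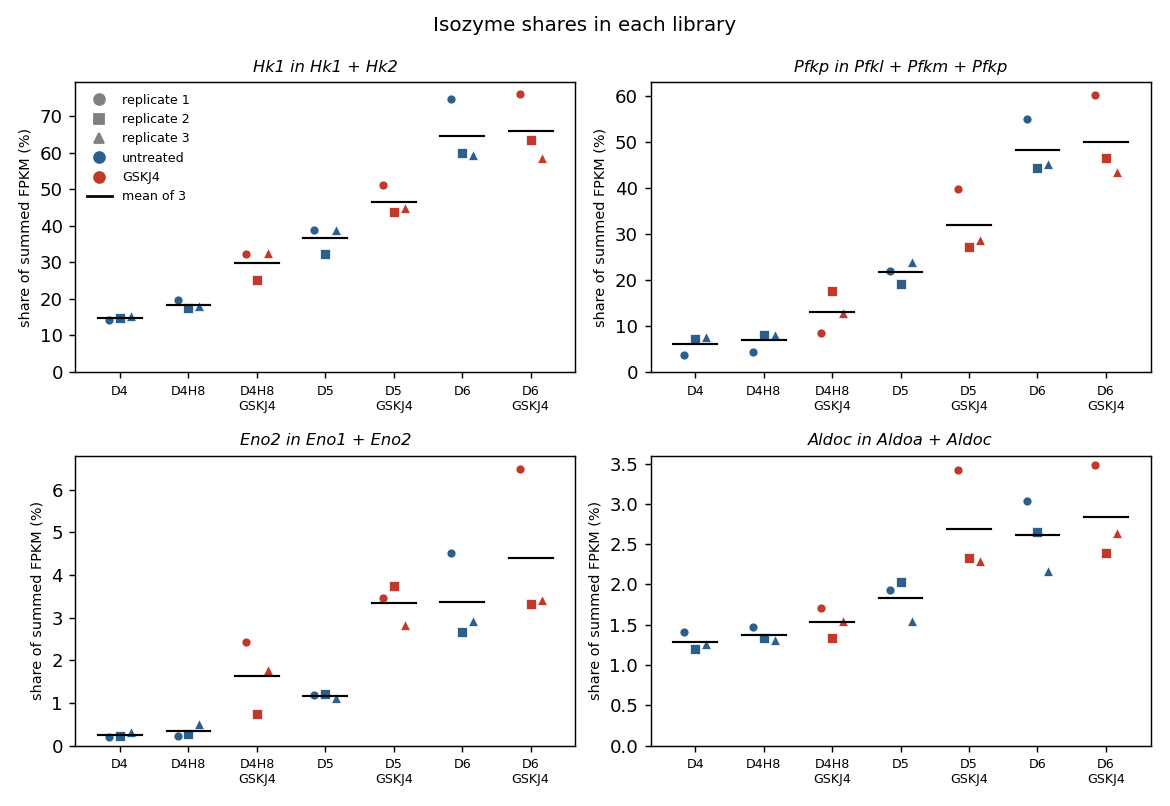
Share of an isoform in the summed FPKM of its family (y axis, percent) in each library, by group (x axis), with a point for each of 3 libraries and a bar for the group mean. The share of Hk1 averages 14.9% at D4 and 64.7% at D6, and within a stage the treated points lie above the untreated ones at D4H8 for Hk1.

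Step by step, calls in the untreated course came after D4H8 and not in the first 8 h. Few of all genes were called in those 8 h either, so this timing is no particular feature of the 42 genes. From D4 to D4H8 none of the 42 genes was called by edgeR, 2 were higher and 1 was lower at an unadjusted p under 0.05 (10.9% and 5.66% of all genes), and of all genes 4.06% rose and 0.32% fell at the adjusted threshold. In the next step, to D5, there were 11 rises (26.2% of the 42) and 3 falls (7.14%), against 17.2% and 10.5% of all genes. The rises were those of the HIF targets Vegfa (log2 0.56), the main growth factor for vessels, Bnip3 (0.82), a receptor for removal of mitochondria, Adm (1.41), a vasodilator peptide, and Mxi1 (0.55), of the prolyl hydroxylase Egln3 (1.10), and of Hk1, Pfkm, Pfkp, Pfkfb3, Pfkfb4 and Eno2. Slc2a1 (−1.43), Pgam1 (−0.44) and Eno1 (−0.46) fell. Without D5 replicate 1, where mitochondrially encoded genes took 0.335% of counts against 2.14% and 1.73% in the other untreated D5 libraries, the log2 fold change of Bnip3 was 0.30, and Bnip3, Vegfa and Egln3 were no longer called. In the last step there were 8 rises (19% of the 42) and 1 fall (2.38%), against 19.2% and 15.1% of all genes. They were Epas1, Mxi1, Hk1, Pfkm, Pfkp, Pfkfb3, Pfkfb4 and Eno2, and Slc2a1 fell again (−0.80).

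For these last steps the replicate numbers marked libraries that deviated together, and a fit with the number as a block changed some calls. From D4H8 to D5 Bnip3 (adjusted p = 0.068) and Eno1 (0.056) were no longer called by edgeR and Bnip3l (0.049) was. From D5 to D6 Ndrg1 (0.031) and Plod1 (0.014) were called in addition.

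At D4H8, GSKJ4-treated cells had less message for lactate dehydrogenase, the lactate exporter, the main glucose transporter and most steps of lower glycolysis, and more for the HIF subunit Epas1. Of the 42 genes 1 (2.38%) was raised and 15 (35.7%) were lowered by edgeR at an adjusted p under 0.05, and of 16269 genes tested 2.11% were raised and 1.85% lowered. The 15 were 9 of 18 glycolytic enzymes, 3 of 16 HIF targets outside metabolism, 2 of 4 transport genes and 1 of 4 genes of the HIF system. The median log2 fold change was −0.95 for the glycolytic enzymes, −1.14 for the transport genes, −0.36 for the HIF targets outside metabolism and 0.28 for the HIF system, against 0.02 over all genes. The treated and untreated libraries did not overlap, with the treated lower, for 12 of 18 glycolytic enzymes and 6 of 16 HIF targets, against 14.3% of all genes. Over the 42 genes 21 did not overlap with the treated lower and 3 with the treated higher, and of all genes 18.5% were of the latter kind. DESeq2 called 3 of the 42 raised and 19 lowered, against 3.62% and 2.69% of all genes. These counts rest on few libraries. Without D4H8 replicate 1 the number of the 42 called was 4, without replicate 2 it was 1 and without replicate 3 it was 0. Without D4H8_GSKJ4 replicate 1 it was 10. The calls over all genes fell as well, from 343 raised and 301 lowered of 16269 in the main fit. They were 2 and 41 of 16778 without D4H8 replicate 1, 3 and 47 of 16846 without replicate 2, and 3 and 44 of 16793 without replicate 3. Without D4H8_GSKJ4 replicate 1 they were 193 and 348 of 16744.

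**Figure D2:**
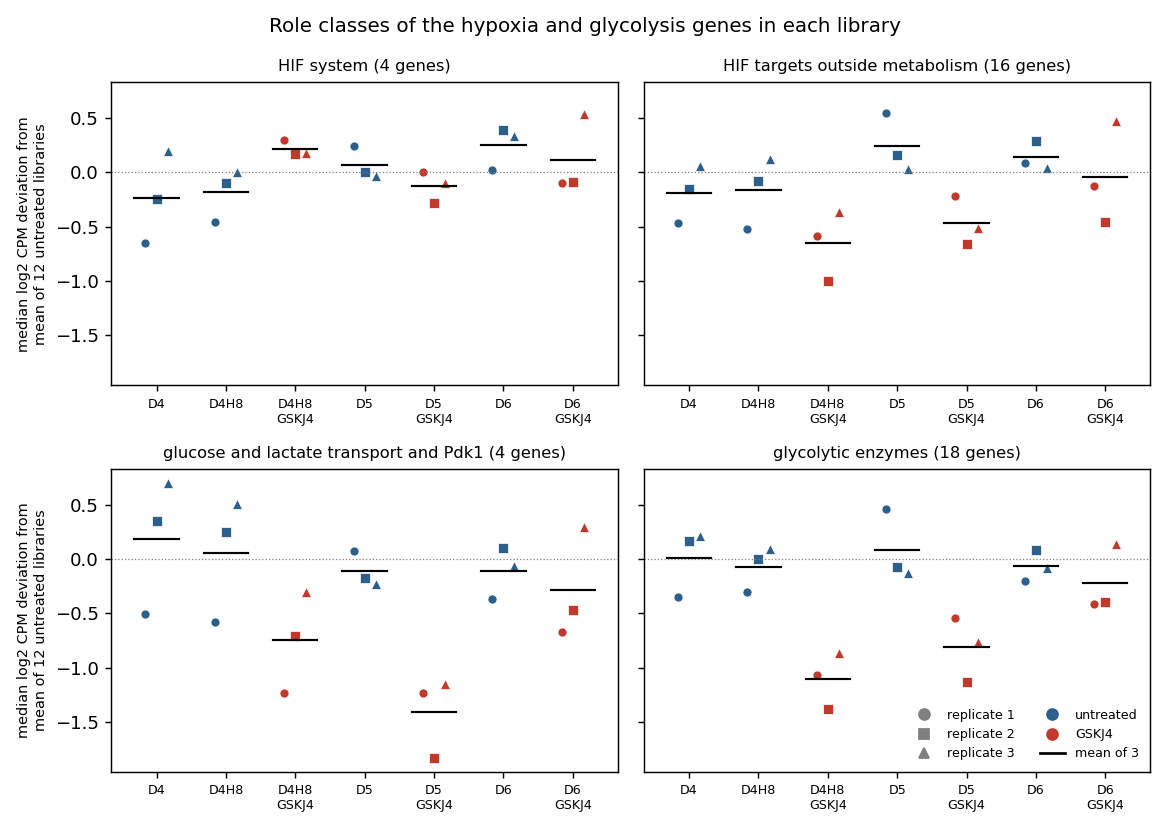
Median over the genes of a class of log2 CPM minus the gene's mean over the 12 untreated libraries (y axis), for each library by group (x axis), with one panel for each class. The 3 treated D4H8 libraries and the 3 treated D5 libraries lie below the untreated libraries of the same stage for the glycolytic enzymes, and at D6 the groups overlap.

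The HIF targets outside metabolism and the enzymes were set side by side library by library. The median deviation of the glycolytic enzymes from their untreated mean was −0.31, 0.00 and 0.09 on the log2 CPM scale in D4H8 replicates 1, 2 and 3, and −1.06, −1.38 and −0.87 with GSKJ4. For the HIF targets outside metabolism it was −0.53, −0.08 and 0.12 untreated and −0.58, −1.0 and −0.37 treated. At D4H8 the enzyme values of treated and untreated libraries lay apart, and those of the HIF targets overlapped. The overlap was that of untreated replicate 1 (−0.53) with treated replicate 3 (−0.37). At D5 both classes lay apart. The HIF targets were there at 0.54, 0.16 and 0.03 untreated and −0.22, −0.66 and −0.51 treated. The enzymes were at 0.46, −0.07 and −0.13 untreated and −0.55, −1.13 and −0.77 treated. No test was made of the difference between the classes. Summed over the 18 enzymes at D4H8, FPKM was 2289, 2874 and 3055 untreated and 1058, 944 and 1521 treated.

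Among the glycolytic enzymes Ldha showed the lowest fold. It had 229, 325 and 359 FPKM in untreated D4H8 cells and 39.0, 33.4 and 91.8 with GSKJ4, which is 5.78-fold lower (log2 −2.53, SE 0.36, adjusted p = 0.0136). The highest treated library was below the lowest untreated one, and the call held in 12 of 13 alternative fits. Pfkl, the liver isoform of phosphofructokinase, had 26.4, 39.7 and 49.6 FPKM untreated and 13.4, 7.93 and 23.0 treated (log2 −1.44, SE 0.34, adjusted p = 0.0498). Aldoa, the main aldolase, had 308, 425 and 450 FPKM untreated and 148, 128 and 213 treated (log2 −1.31, SE 0.22, adjusted p = 0.023), and Aldoc, the brain aldolase, 4.62, 5.75 and 5.95 against 2.57, 1.74 and 3.35 (log2 −1.14, SE 0.26, adjusted p = 0.0466). The aldolases thus had low values together, although their levels differ widely.

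Tpi1, triose phosphate isomerase, had 153, 195 and 222 FPKM untreated and 68.4, 54.1 and 109 treated (log2 −1.35, SE 0.25, adjusted p = 0.0259). Pgk1 had 287, 357 and 391 FPKM untreated and 109, 113 and 166 treated (log2 −1.46, SE 0.21, adjusted p = 0.015). Neither gene's groups overlapped. Pgam1, phosphoglycerate mutase, had 205, 217 and 234 FPKM untreated and 136, 80.7 and 138 treated (log2 −0.93, SE 0.20, adjusted p = 0.0395). Eno1 had 387, 477 and 484 FPKM untreated and 197, 225 and 284 treated (log2 −0.97, SE 0.20, adjusted p = 0.0361), and Pkm, pyruvate kinase, 528, 615 and 628 against 224, 181 and 325 (log2 −1.33, SE 0.22, adjusted p = 0.0204). From aldolase to lactate, Gapdh (log2 −0.78, adjusted p = 0.119) was the step whose gene was not called.

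The hexokinases, Pfkm and the neuronal enolase were not called. Hk2, the hexokinase of fast-growing cells, had a log2 fold change of −0.67 (adjusted p = 0.0968), and Hk1 0.24 with 3.72, 4.69 and 5.33 FPKM untreated and 5.55, 4.82 and 6.28 treated. Hk1 therefore made up 29.9% ± 4.20 of the hexokinase FPKM in treated cells and 18.4% ± 1.22 in untreated ones, without overlap of the libraries. Pfkm had a log2 fold change of −0.10, and Eno2 of 1.24 (SE 0.45, adjusted p = 0.13), with 0.91, 1.36 and 2.53 FPKM untreated and 4.89, 1.67 and 5.13 treated. The treated values of Eno2 overlapped the untreated ones.

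**Figure D3:**
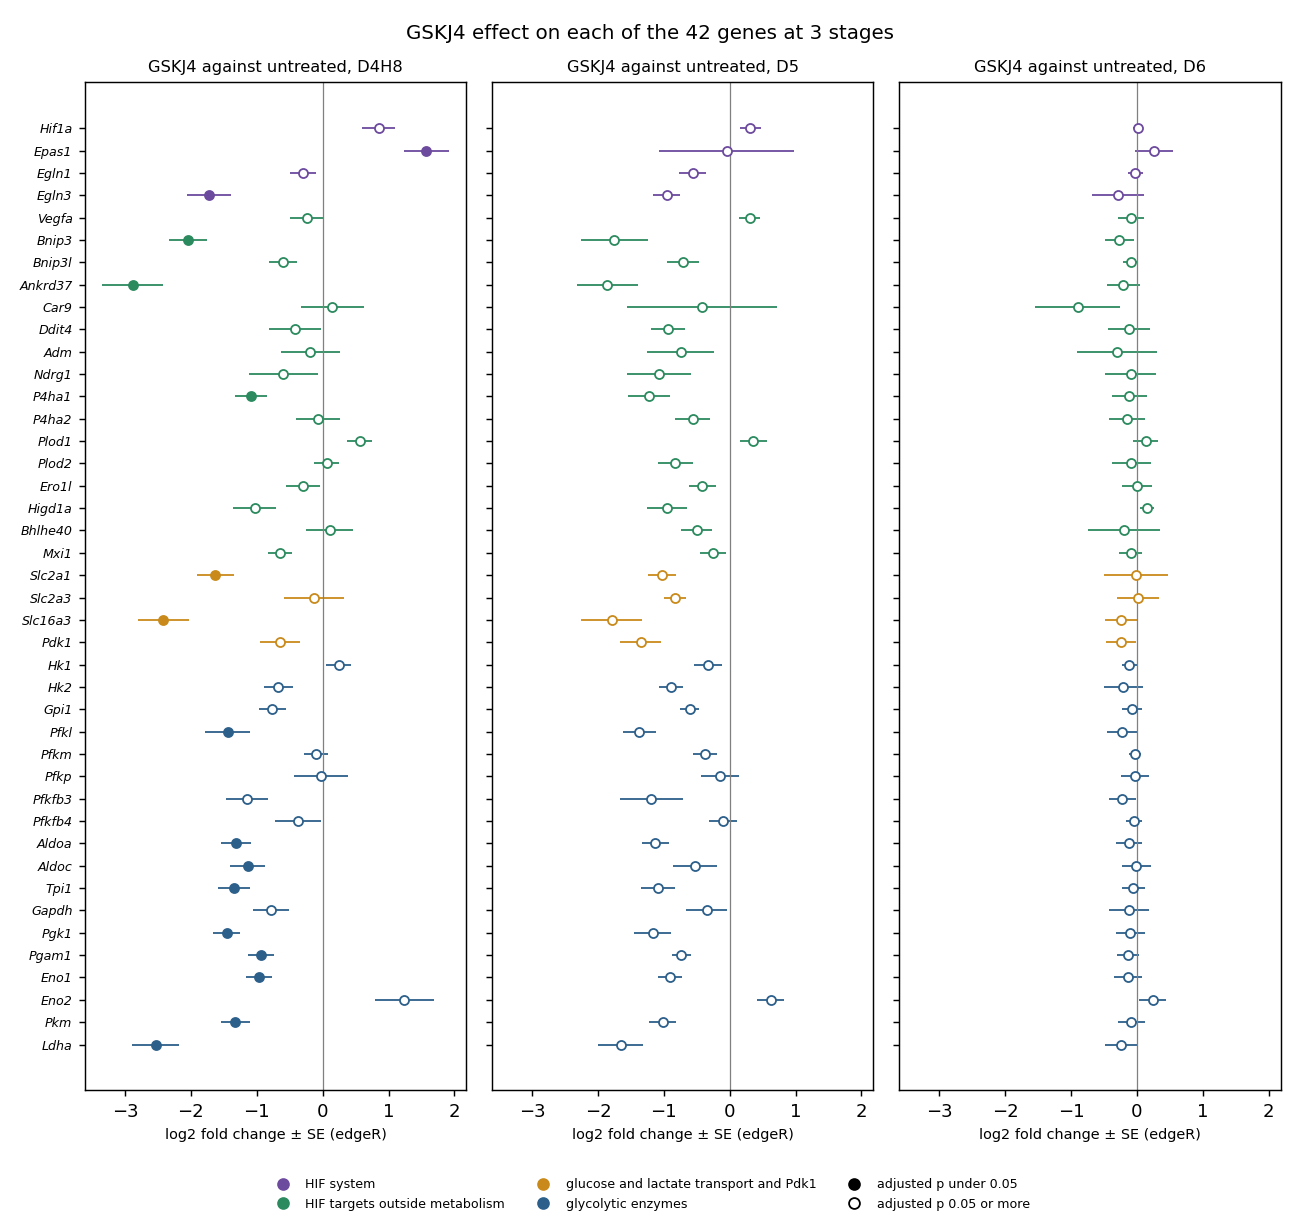
Log2 fold change of GSKJ4-treated over untreated libraries with its standard error (x axis) for each of the 42 genes (y axis), by class, at D4H8, D5 and D6. Ldha, Slc16a3, Bnip3 and Ankrd37 lie beyond −2 at D4H8 and near 0 at D6.

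Of the transport genes, Slc16a3 and Slc2a1 were lowered. Slc16a3, the lactate exporter Mct4, had 17.5, 28.7 and 33.8 FPKM untreated and 3.67, 3.03 and 8.83 treated (log2 −2.42, SE 0.38, adjusted p = 0.0194). Slc2a1 had 271, 292 and 361 FPKM untreated and 77.1, 73.1 and 160 treated (log2 −1.63, SE 0.29, adjusted p = 0.0246). The groups lay apart for both genes. For Slc2a3, the neuronal glucose transporter, the groups overlapped, with 24.1, 74.0 and 93.8 FPKM untreated and 33.0, 64.1 and 80.2 treated. Pdk1, a kinase of pyruvate dehydrogenase, had a log2 fold change of −0.64 and was not called.

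Of the HIF targets outside metabolism, Ankrd37, Bnip3 and P4ha1 were lowered. Ankrd37, an ankyrin repeat protein, had 2.61, 3.60 and 5.90 FPKM untreated and 0.39, 0.42 and 0.87 treated (log2 −2.88, SE 0.46, adjusted p = 0.0194). It overlaps Ufsp2 on the other strand. Bnip3 had 40.7, 54.5 and 61.9 FPKM untreated and 8.72, 10.9 and 19.5 treated (log2 −2.05, SE 0.29, adjusted p = 0.0136), and P4ha1, a collagen prolyl hydroxylase, 17.2, 25.5 and 28.6 against 10.0, 8.73 and 15.8 (log2 −1.09, SE 0.25, adjusted p = 0.0448). The 13 other targets were not called by edgeR, with fold changes on both sides of 0. Over all 16 targets 12 fold changes were below 0 and 4 above. DESeq2 called 5 of the 16 lowered, against 2.69% of all genes. Treated libraries lay below all untreated ones for 6 of the 16, against 14.3% of all genes. They lay above them for 1, against 18.5%. Vegfa had 18.3, 23.5 and 30.2 FPKM untreated and 23.1, 13.3 and 26.8 treated (log2 −0.24, SE 0.25, adjusted p = 0.58), P4ha2 3.13, 5.49 and 6.41 against 4.07, 3.19 and 7.57, and Plod2, a lysyl hydroxylase, 9.84, 13.9 and 14.6 against 13.4, 13.6 and 13.8. In these genes the groups overlapped. Mxi1 (−0.64, adjusted p = 0.0744) and the mitochondrial protein gene Higd1a (−1.03, adjusted p = 0.0941) were not called, nor was Ddit4 (−0.42), an inhibitor of mTOR signalling. Bnip3l, not called either, had 38.4, 41.0 and 43.7 FPKM untreated and 22.2, 33.1 and 26.95 treated. For Mxi1, Higd1a and Bnip3l the treated libraries lay below all untreated ones, and for Plod1 above them.

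The HIF system itself moved in both directions. Hif1a, the main HIF alpha subunit, had 30.0, 25.7 and 28.6 FPKM untreated and 47.7, 66.9 and 38.7 treated (log2 0.85, SE 0.25, adjusted p = 0.0828). Its treated libraries were all above its untreated ones, but the difference did not pass the threshold in the main fit and did in 4 of 13 alternatives. Epas1 was raised, from 0.35, 0.74 and 0.78 FPKM to 2.18, 1.49 and 1.97 (log2 1.58, SE 0.34, adjusted p = 0.0397), and remained low. Egln3, a prolyl hydroxylase that is itself a HIF target, was lowered from 4.01, 5.38 and 6.82 FPKM to 1.23, 1.32 and 2.51 (log2 −1.72, SE 0.34, adjusted p = 0.0311). Egln1, the main oxygen-sensing prolyl hydroxylase, had 29.6, 34.9 and 42.2 FPKM untreated and 31.5, 22.0 and 36.2 treated (log2 −0.30, SE 0.20, adjusted p = 0.382), with overlapping groups.

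Other features of the treated D4H8 cultures moved alongside. Neural progenitor markers (Sox2, Olig2, Nkx6-1, Pax6, Hes5) summed to between 203 and 283 FPKM untreated and between 42.7 and 90.4 treated, motor neuron markers to between 48.3 and 54.9 and between 11.4 and 26.0, and neuron markers to between 167 and 329 and between 70.0 and 198. Markers of proliferating cells ran from 319 to 338 FPKM untreated and from 190 to 353 treated. Mitochondrially encoded genes took 5.33% of counts in D4H8_GSKJ4 replicate 2 and 1.65% to 2.27% in the other 5 libraries. The part of these differences in the values of the 42 genes was not tested.

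At D5 the glycolytic genes again had lower values with GSKJ4, but none of the 42 was called by edgeR, where 0.00613% of 16309 genes were. At an unadjusted p under 0.05 24 of the 42 were lower and 1 was higher, against 2.39% and 2.31% of all genes. DESeq2 called 16 of them, all lower: 9 glycolytic enzymes, 3 transport genes, 3 HIF targets and 1 gene of the HIF system. It called 0.132% of all genes lower and 0.0958% higher. The groups did not overlap, with the treated lower, in 22 of the 42 genes and in 5.13% of all genes, and with the treated higher in 3 of the 42 and in 6.44% of all genes. The median log2 fold change was −0.82 for the glycolytic enzymes, −1.19 for the transport genes, −0.73 for the HIF targets outside metabolism and −0.31 for the HIF system. Of the 15 genes lowered at D4H8, 14 had treated libraries below all untreated ones at D5, with a median log2 fold change of −1.13, and of the 27 others 8 had, with a median of −0.50.

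Ldha had 382, 250 and 235 FPKM in untreated D5 cells and 131, 51.8 and 100 with GSKJ4 (log2 −1.66, SE 0.34, adjusted p = 0.353). Slc16a3 had 31.6, 26.4 and 29.4 FPKM untreated and 12.2, 2.54 and 11.1 treated (log2 −1.79, SE 0.46, adjusted p = 0.695). In both genes the treated libraries lay apart from the untreated ones and replicate 2, the library with many genes at 0, was the lowest. Without that library the log2 fold change was −1.35 for both Ldha and Slc16a3, and edgeR still called none of the 42. Bnip3 had 143, 74.8 and 55.0 FPKM untreated and 48.6, 12.2 and 22.1 treated (log2 −1.75, SE 0.51, adjusted p = 0.9), and Ankrd37 10.8, 7.45 and 4.00 against 2.52, 2.65 and 1.17 (log2 −1.86, SE 0.47, adjusted p = 0.695). Pfkl had 51.4, 34.1 and 34.3 FPKM untreated and 17.3, 10.98 and 19.6 treated, and Slc2a1 120, 93.4 and 128 against 49.3, 45.4 and 78.0. These pairs of groups did not overlap. The spread within the untreated D5 group was itself wide, since replicate 1 was the highest for Ldha, Bnip3, Ankrd37 and Pgk1 (510, 310 and 289 FPKM, against 211, 117 and 181 treated). In that library mitochondrially encoded genes took 0.335% of counts, against 1.71% to 2.42% in the other D5 libraries of both groups. Without it the log2 fold change was −1.38 for Ldha, −1.24 for Bnip3, −1.46 for Ankrd37 and −0.84 for Pgk1, and edgeR again called none of the 42.

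For the other genes that were called at D4H8, the D5 values were as follows by role. In the HIF system, Egln3 had 12.4, 10.9 and 11.1 FPKM untreated and 6.23, 6.91 and 5.10 treated, and Epas1 0.74, 0.75 and 0.82 against 1.05, 0.00 and 1.24. The treated libraries lay below the untreated ones for Egln3 and on both sides of them for Epas1. Hif1a had 20.5, 29.5 and 26.4 FPKM untreated and 29.7, 36.6 and 31.9 treated (log2 0.32, adjusted p = 0.976), and Egln1 52.8, 31.8 and 34.3 against 27.3, 27.6 and 28.4. P4ha1 had 49.6, 32.1 and 27.1 FPKM untreated and 21.1, 9.56 and 17.2 treated. Among the enzymes, Tpi1 had 324, 215 and 208 FPKM untreated and 153, 85.4 and 123 treated, Pkm 722, 476 and 493 against 296, 245 and 323, and Aldoa 446, 348 and 363 against 211, 136 and 199. Eno1 had 381, 282 and 306 FPKM against 179, 149 and 205, Pgam1 164, 157 and 159 against 97.99, 88.6 and 111, and Aldoc 8.76, 7.20 and 5.70 against 7.48, 3.24 and 4.66. Of these enzymes, only Aldoc had overlapping groups. The treated values of Vegfa lay above the untreated ones, with 40.3, 33.0 and 31.5 FPKM untreated and 41.1, 49.4 and 43.2 treated.

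Motor neuron markers summed to between 201 and 250 FPKM in untreated and between 132 and 159 in treated D5 cells. Markers of proliferating cells overlapped, at 110 to 166 and 109 to 153 FPKM. The part of the motor neuron markers in the values of the 42 genes was not tested.

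At D6 no difference between treated and untreated cells passed the test. None of the 42 was called by edgeR, which called 0 of all genes, or by DESeq2, which called 0.00326% of all genes lower. None had an unadjusted p under 0.05 by edgeR, against 0.54% of all genes higher and 0.822% lower, and none of the 42 had treated libraries below all the untreated ones, against 2.48% of all genes. Higd1a had treated libraries above all the untreated ones, a pattern of 2.82% of all genes. The median log2 fold change was −0.10. The replicate numbers paired the D6 libraries, and with the number as a block there was again no gene called among the 42, where 0.294% of all genes were raised and 1.28% lowered. A p over the threshold does not show that levels were equal, and the fold changes ran from −0.89 to 0.26.

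Ldha had 163, 237 and 216 FPKM in untreated D6 cells and 126, 152 and 249 with GSKJ4 (log2 −0.24, SE 0.24, adjusted p = 1). Slc16a3 had 25.7, 35.8 and 30.7 FPKM untreated and 20.0, 20.4 and 38.6 treated, Bnip3 64.6, 71.3 and 59.0 against 49.9, 39.1 and 74.8, and Ankrd37 7.28, 8.73 and 6.38 against 5.12, 5.55 and 9.0. In each of these genes treated replicates 1 and 2 lay below all untreated libraries and treated replicate 3 above them. The same division ran through the classes. Compared with the untreated library of the same number, 15 of 18 glycolytic enzymes were lower in replicate 1 (median log2 difference −0.16), 18 of 18 were lower in replicate 2 (−0.44), and 15 of 18 were higher in replicate 3 (0.20). Of the 16 HIF targets outside metabolism, 14 were lower in replicate 1 (−0.30), 15 were lower in replicate 2 (−0.68) and 15 were higher in replicate 3 (0.39).

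Among the other genes called at D4H8, treated replicate 3 was above all untreated D6 libraries for each, while replicates 1 and 2 were below all of them for some and within their range for others, and replicate 2 was above them for Epas1. Pkm had 313, 464 and 429 FPKM untreated and 285, 375 and 484 treated, Aldoa 296, 360 and 348 against 253, 258 and 419, Tpi1 159, 213 and 202 against 147, 172 and 238, and Pgk1 198, 290 and 254 against 173, 207 and 318. For Pkm, Tpi1 and Pgk1 treated replicate 2 lay within the untreated range, and for Aldoa it lay below. Pfkl had 29.3, 42.05 and 37.4 FPKM untreated and 22.96, 26.9 and 44.1 treated, Aldoc 9.24, 9.78 and 7.70 against 9.13, 6.31 and 11.4, Pgam1 148, 169 and 167 against 126, 126 and 193, and Eno1 209, 296 and 269 against 175, 222 and 316. For Pfkl and Pgam1 treated replicates 1 and 2 were below all untreated libraries, and replicate 1 of Aldoc and replicate 2 of Eno1 lay within the untreated range. Slc2a1 had 32.4, 73.2 and 77.4 FPKM untreated and 25.2, 54.8 and 103 treated, P4ha1 18.02, 27.0 and 24.8 against 14.7, 18.9 and 31.5, Egln3 5.71, 10.8 and 10.9 against 4.28, 5.82 and 12.5, and Epas1 1.08, 1.48 and 1.46 against 0.96, 1.84 and 2.08. Hif1a had 20.8, 21.5 and 22.5 FPKM untreated and 20.6, 22.9 and 22.4 treated, and Egln1 36.6, 37.8 and 36.7 against 32.2, 34.8 and 43.2.

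At D4 the genes of the HIF system had values that overlapped those of untreated D4H8 cells. Hif1a had 28.3, 25.5 and 30.9 FPKM, Egln1 20.4, 29.3 and 41.98, Egln3 2.1, 4.88 and 8.01, and Epas1 0.46, 0.70 and 1.15. The spread of Egln3 and Epas1 at D4 was wide, with replicate 1 the lowest. The genes called at D4H8 had at D4 27.7, 43.6 and 61.1 FPKM for Pfkl, 187, 244 and 248 for Tpi1, 487, 635 and 654 for Pkm, 271, 466 and 498 for Aldoa, 3.88, 5.67 and 6.34 for Aldoc, 144, 210.5 and 259 for Pgam1, 15.5, 24.1 and 33.2 for Slc16a3, 29.0, 48.3 and 51.1 for Bnip3, 2.83, 3.88 and 4.56 for Ankrd37, and 15.3, 22.9 and 27.9 for P4ha1. In each of these genes replicate 1 was again the lowest D4 library.

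The genes with the largest changes from D4 to D6 had these values with GSKJ4. Pfkp had 2.43, 4.03 and 5.62 FPKM at D4H8, 21.8, 10.5 and 15.6 at D5 and 71.8, 46.4 and 56.0 at D6, and Hk1 had 5.55, 4.82 and 6.28, then 8.99, 7.52 and 9.23, then 24.0, 20.3 and 22.4. Eno2 had 4.89, 1.67 and 5.13 FPKM, then 6.44, 5.82 and 5.98, then 12.2, 7.63 and 11.2. In these 3 genes the treated D6 libraries were above the treated D5 and D4H8 libraries. Pfkfb3 had 3.73, 1.57 and 1.58 FPKM at D4H8, 7.81, 1.53 and 4.21 at D5 and 14.2, 11.2 and 19.7 at D6, and Pfkfb4 had 2.37, 1.11 and 1.66, then 5.39, 3.68 and 4.36, then 7.30, 6.24 and 6.16. Mxi1 had 3.08, 3.11 and 3.66 FPKM, then 7.77, 4.96 and 6.11, then 11.99, 9.14 and 10.3. For these genes too the treated D6 libraries were the highest. Gapdh had 14.0, 19.0 and 29.1 FPKM, then 18.7, 27.6 and 20.0, then 9.33, 14.9 and 21.1, and Plod1 10.9, 7.35 and 11.9, then 5.55, 8.52 and 8.40, then 3.34, 3.86 and 5.20.

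**Figure D4:**
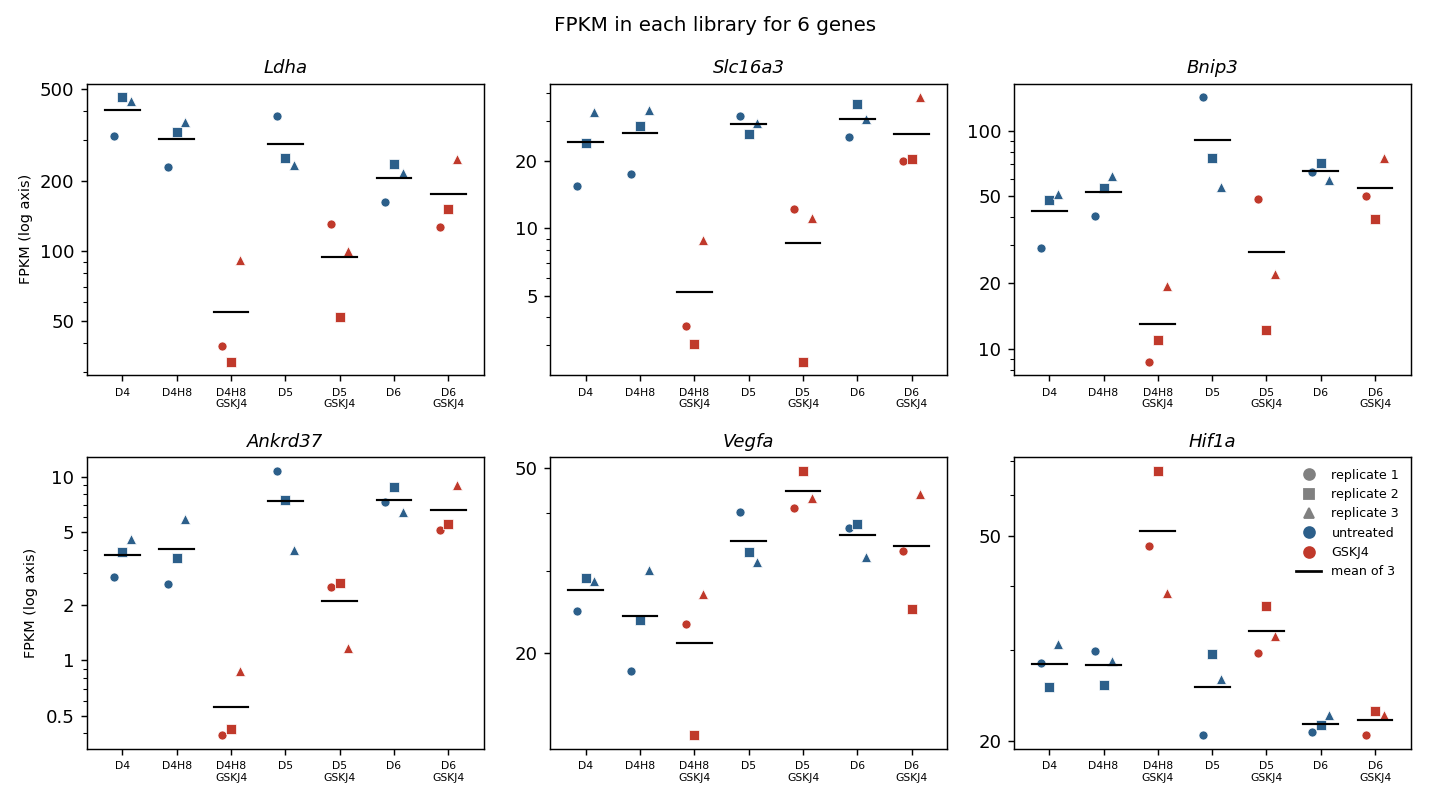
FPKM (y axis, log scale) of 6 genes in each of the 21 libraries, by group (x axis), with a point for each library. Ldha lies at 229 to 359 FPKM in untreated D4H8 cells and at 33.4 to 91.8 with GSKJ4, and the groups overlap at D6.

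The effects of GSKJ4 at the stages were compared with each other in a fit of the 18 libraries of D4H8, D5 and D6. Between D6 and D4H8 the log2 fold change differed for Ankrd37 (2.69 higher at D6, SE 0.61, adjusted p = 0.048) and for Ldha (2.31 higher, SE 0.51, adjusted p = 0.0434), and for 0.552% of all genes in that direction. No gene of the 42 was called in the other direction, as 0.182% of all genes were. At an unadjusted p under 0.05 17 of the 42 genes were higher and 2 lower, against 7.15% and 6.53% of all genes. Between D5 and D4H8 none of the 42 was called by edgeR (0 higher and 2 lower at an unadjusted p under 0.05, against 5% and 5.04% of all genes), where 0.232% of all genes were higher and 0.0166% lower, and between D6 and D5 none was either (15 higher and 0 lower, against 1.03% and 0.945%). No difference of effect between D4H8 and D5 was thus detectable for these genes.

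Further genes of the same pathways were listed from general knowledge, but with earlier results of these data known. Their counts are therefore a description of these genes and support nothing beyond themselves. At D4H8 edgeR called 5 of the 95 that were tested, all lowered (5.26%, against 1.85% of all genes). They were Narf (log2 −1.81, adjusted p = 0.003), Ppp1r3c (−1.63, adjusted p = 0.042), a subunit that directs a phosphatase to glycogen, and Fam162a (−1.39, adjusted p = 0.0275) among 31 further HIF targets tested, Hk3 (−4.16, adjusted p = 0.0246) among the further glycolytic and lactate genes, and Tkt (−0.98, adjusted p = 0.0292), transketolase, in the pentose phosphate pathway. Hk3 had a mean of 5.93 FPKM untreated and 0.35 FPKM treated. Among 13 regulators of HIF (2 higher and 4 lower at an unadjusted p under 0.05), 12 genes of pyruvate dehydrogenase and its kinases (2 higher, 1 lower) and 16 of the citric acid cycle (1 higher, 3 lower), edgeR called none. DESeq2 called 3 raised and 13 lowered of 99 tested (3.03% and 13.1%, against 3.62% and 2.69% of all genes).

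In the untreated course from D4 to D6 genes of each list were called, beside the 32.9% of all genes that rose and the 31% that fell. Of the further HIF targets 11 rose and 7 fell, led by Lox (log2 3.27), S100a10 (2.81), Anxa2 (2.57) and Kdm4b (2.12). Of the further glycolytic and lactate genes 7 rose and 7 fell. Slc16a7, a monocarboxylate transporter with high affinity for pyruvate, rose (4.47) while Slc16a1, the general one, fell (−2.46), and Hk3 (−4.85) and Eno3 (−2.20) fell. Among the regulators of HIF 5 rose and 1 fell, with Arnt2, a beta subunit of neurons, at 2.02. In the citric acid cycle 1 rose and 7 fell, with Suclg2 at −2.50 and Suclg1 at −0.80, and in the pentose phosphate pathway 3 fell and none rose. Of the pyruvate dehydrogenase genes 5 rose and 3 fell, with the phosphatase Pdp1 at 3.72 and the kinase Pdk3 at −2.43.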

How the data were processed

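Polyadenylated RNA of 21 libraries, 7 groups of 3 biological replicates, was sequenced. The authors trimmed reads with Fastp, aligned them to mm10 with Hisat2, handled the alignments with SAMtools and counted reads per gene with HTSeq-count against Ensembl annotation. The counting strand is not given in the sources used here. They deposited raw counts per gene and FPKM, which are those counts per kilobase of exon and scaled to the counted reads of the library. FPKM recomputed from the deposited counts differed by at most 0.005. Libraries were assigned to groups and replicate numbers by their titles and column names. Total counts per library ran from 14982115 to 34383842. Each p-value measures the spread between these libraries only. No pair of replicates matched within sampling noise (lowest mean chi-square per gene 6.94).

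Gene symbols, positions and exon windows came from GENCODE M21 on GRCm38, where 55140 of 55400 identifiers had a symbol, and promoters from RefSeq on GRCm38.p6. From the counts, edgeR 4.0.16 in R 4.3.3 fitted quasi-likelihood models to all genes with TMM scaling and filterByExpr (minimum count 10), and p-values were adjusted by Benjamini-Hochberg over all genes tested, with a threshold of 0.05. Each GSKJ4 contrast used the 6 libraries of its stage, the stage contrasts the 12 untreated libraries, and the comparisons of GSKJ4 effects the 18 libraries of D4H8, D5 and D6. The SE of a log2 fold change is its size over the square root of the F statistic. Class values per library are medians of log2 CPM (prior count 2). DESeq2 1.42.0, other scalings and filters, a replicate block, a joint fit and leaving out each library were alternatives. The scripts were tested on simulated data.

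The 42 genes, the further lists, the markers and the tests were chosen with earlier results of these data known. Values in every library are given for genes called under GSKJ4, for the HIF system and for the 6 largest rises and falls from D4 to D6. Further cases such as Vegfa, P4ha2, Plod2, Bnip3l and Slc2a3 were added after their values were seen. Of each further list at most the 4 genes with the largest change among those called were named. Replicate numbers come from the titles. Over 18349 genes, deviations from the group means of same-numbered libraries correlated at 0.663, 0.316 and 0.446 between the D6 groups. Between D4H8 and D5 the correlations were 0.315, 0.147 and 0.137, and between D5 and D6 0.31, 0.144 and 0.226. All were over 0.1, and these were taken as paired. Differently numbered libraries reached 0.187, 0.11 and 0.0988 in the same comparisons, so between D4H8 and D5 the pairing is only weakly shown. For the other pairs of groups compared at least 1 correlation of same-numbered libraries was under 0.1, and the numbers were not taken to pair the libraries.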

Additional observations from a re-analysis of the deposited data

Results flagged for a closer look

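The effect of GSKJ4 on Ankrd37 and Ldha differed between D6 and D4H8 by edgeR's test of the difference over 18 libraries. The log2 fold change of Ankrd37 was 2.69 higher at D6 than at D4H8 (adjusted p = 0.048), and that of Ldha was 2.31 higher (adjusted p = 0.0434). At D4H8 all 3 treated libraries were below all 3 untreated ones for both genes, and at D6 treated replicates 1 and 2 were below and treated replicate 3 above. Both calls held in 2 of 2 alternative edgeR fits, with adjusted p from 0.00328 to 0.0478 for Ankrd37 and from 0.00159 to 0.0423 for Ldha. These fits used upper-quartile scaling and a replicate block within each stage, and the numbers are not shown to pair the D4H8 libraries. The genes were chosen with responses to GSKJ4 in these libraries known, so these p-values describe the 2 genes and support nothing further.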

How the results depend on the processing

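Of 1161 log2 fold changes recomputed for 91 results, 964 kept their direction and their side of the threshold. Another 159 kept the direction and were no longer called, 38 kept the direction and became called, and none changed sign. The 91 results were fold changes of the 42 genes that were called in a main fit or are printed here. They were refitted on the same data, so that their signs held is no independent support. Class medians averaged over the libraries of a group all moved by less than the SD between those libraries. The alternatives tried for them were a smaller prior count and log2 FPKM in place of log2 CPM. Upper-quartile scaling was not tried for them. At D4H8 the number of the 42 genes called under GSKJ4 was 16 (1 raised, 15 lowered), with 22 by DESeq2 and 24 without the filter, and 0 to 22 with a library left out. The lowest of these counts were 4 without D4H8 replicate 1, 1 without D4H8 replicate 2, 0 without D4H8 replicate 3 and 10 without D4H8_GSKJ4 replicate 1. Over all genes the main fit raised 343 and lowered 301 of 16269. DESeq2 called 1128 and 837 of 31166, and the fit without the filter 1229 and 1058 of 31166. Without D4H8 replicates 1, 2 and 3 in turn, 2 and 41 of 16778, 3 and 47 of 16846 and 3 and 44 of 16793 were called. Without D4H8_GSKJ4 replicate 1 these were 193 and 348 of 16744. At D5 the number of the 42 genes called was 0, with 16 lowered by DESeq2 and 22 lowered without the filter. Among all genes DESeq2 raised 29 and lowered 40 of 30265, and the fit without the filter raised 49 and lowered 79 of 30271. From D4 to D4H8 the number of the 42 was 0, with 2 without the filter (1 higher, 1 lower). Among all genes the main fit called 711 higher and 56 lower of 17519. The fit without the filter called 1055 and 264 of 34033, and DESeq2 965 and 174 of 34033. From D4H8 to D5 the number of the 42 was 14, with 7 in a joint fit of all 21 libraries and 8 to 16 with a library left out (9 without D4H8 replicate 1, 8 without D4H8 replicate 2, 9 without D5 replicate 2). Among all genes the main fit called 3019 higher and 1842 lower of 17519, and the joint fit 2064 and 1154 of 18349. Without the named libraries in turn, 2700 and 1445 of 18053, 2363 and 1285 of 18031, and 2554 and 1900 of 18020 were called. From D5 to D6 the number of the 42 was 9, with 4 in the joint fit, and upper-quartile scaling gave 5 higher and 3 lower in place of 8 and 1. Among all genes the main fit called 3369 higher and 2647 lower of 17519, and upper-quartile scaling 2912 and 3251. The joint fit called 2210 and 1983 of 18349. From D4 to D6 the number of the 42 was 23, with 17 to 21 when a library was left out. Among all genes the main fit called 5761 higher and 5427 lower of 17519. With a library left out these were 5273 to 5579 higher and 4724 to 5446 lower. Of the further genes (94 to 97 tested by edgeR, 99 by DESeq2 or without the filter), DESeq2 called 16 at D4H8, 3 at D5 and 6 from D4 to D4H8, and the fit without the filter 16, 6 and 7, against 5, 0 and 3. The fit without the filter tests more genes, and the cause of the other shifts was not tested.

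With the replicate number as a block the count was 24 at D4H8 (3 raised, 21 lowered), 0 at D5 and D6, 0 from D4 to D4H8, 13 from D4H8 to D5, 11 from D5 to D6 and 23 from D4 to D6. Over all genes this fit raised 1235 and lowered 1039 of 16269 at D4H8, against 343 and 301 in the main fit. At D5 it called 4 and 0 of 16309, and at D6 48 and 209 of 16301. Of 17519 genes it called 838 higher and 107 lower from D4 to D4H8, and 3246 and 2173 from there to D5. From D5 to D6 these were 3645 and 3008, and from D4 to D6 5894 and 5778. For the comparison of GSKJ4 effects between D6 and D4H8 the block within each stage gave 13 of the 42 in place of 2, all higher at D6. It gave 0 for the other comparisons of stages. Of all 18103 genes the block called 520 higher at D6 than at D4H8 and 360 lower, against 100 and 33 in the main fit. Between D5 and D4H8 it called 229 higher and 92 lower, and between D6 and D5 0 in either direction. At D4H8 and D5 the same-numbered treated and untreated libraries correlated at 0.44, 0.0731 and 0.255 and at 0.223, 0.0384 and 0.209, so they share a number and are not shown to be pairs. Apart from the calls named with the untreated steps, the block changed no call among the 42 genes where the numbers paired the libraries. With 3 libraries a group, low genes such as Epas1 and Car9 rest on few reads, and changes of small size were not detectable.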
